A study of Mus musculus with 6 samples.

Results

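The preadipocyte and lipid handling genes described here are 9 genes of 27179 in the deposited count table: the transcription factors Cebpa, Cebpb, Cebpd and Zfp423, and the lipid genes Lpl, Cd36, Fabp4, Plin2 and Adipoq. They were taken by gene symbol from a list of adipogenic factors and lipid handling genes, with no threshold on a measured value. Each symbol matched 1 row of the table. After genes with low counts were set aside, 8 of the 9 were among 14855 genes tested, and Adipoq was not.

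RNA sequencing was performed on cancer-associated fibroblasts (CAFs) of 3 mouse mammary tumors, and the GFP+ CAFs of each tumor were divided by flow cytometry into a CD34- and a CD34+ fraction. The tumors grew in female raGFP-Wnt1 mice, the offspring of MMTV-Wnt1 mice (FVB/NJ) and heterozygous Pdgfra H2B-GFP reporter mice (C57BL/6). Both groups therefore carry the Wnt1 transgene, which the MMTV promoter drives in the mammary epithelium, and 1 reporter allele, and the groups differ by the CD34 sort. There were 3 libraries per group, 1 per tumor, and the age of the mice was not given in the sources used here.

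Preadipocytes are fibroblast-like cells of adipose tissue, including the mammary fat pad, that can become adipocytes. In differentiation, Cebpb and Cebpd act early and Cebpa later, Zfp423 marks commitment to the lineage, and genes for fatty acid uptake, transport and storage follow. Several of these genes, Lpl and Plin2 among them, are also used by cells that are not adipocytes.

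Library totals ranged from 16238059 counts (CD34+ tumor 1) to 86609267 counts (CD34+ tumor 2). The CD34- library of tumor 3 stood apart: it had counts for 14314 genes, against 16253 to 19220 in the others, and its log2 values correlated with theirs at only 0.837 to 0.883. Cd34, the sort marker, was at 74.3 ± 30.2 CPM (read counts relative to library size) in CD34- CAFs and at 948 ± 571 in CD34+ CAFs (SD, n = 3), and Pdgfra, whose reporter defined the sort, at 385 ± 83.1 and 428 ± 85.8. The summed level of 5 fibroblast markers was 23882 to 39349 CPM in CD34- and 25524 to 33566 CPM in CD34+ libraries, most of it Col1a2. Of the 5, Dcn, Lum, Igfbp5 and Pdgfra were lower in the CD34- fraction of each tumor, and Col1a2 was higher in each. With the tumor in the fit Dcn and Lum fell by 1.12 and 0.73 on the log2 scale (adjusted p of 0.00154 and 0.014), where 4.25% of all tested genes were called lower. Igfbp5, Pdgfra and Col1a2 did not pass, at -0.82, -0.15 and 0.35 (adjusted p of 0.0717, 0.508 and 0.271). The 8 adipocyte markers together reached 0 to 3.22 CPM in CD34- and 2.40 to 3.96 CPM in CD34+ libraries, most of it Lipe, and Cfd, Cidec, Lep and Retn had no count in any library, where it is not known whether reads of these genes could be counted. Pericyte markers were higher in CD34- CAFs, at 182 to 226 CPM against 27.2 to 93.5 CPM for the sum of 4 genes led by Cspg4. The groups did not overlap for any of the 4, where 20.5% of all tested genes did not. With the tumor in the fit Mcam, Cspg4 and Notch3 rose by 2.15, 1.81 and 1.55 on the log2 scale (adjusted p of 0.00251, 0.00309 and 0.00601), where 4.32% of all tested genes were called higher. Rgs5 had a log2 fold change of 2.60 and did not pass (adjusted p of 0.0803). Endothelial, macrophage and epithelial markers overlapped between the fractions in their sums, which were led by Kdr, Csf1r and Krt8 and reached at most 28.3, 10.5 and 149 CPM. Within each tumor, however, the epithelial sum was higher in the CD34- fraction, at 149, 124 and 48.3 CPM in tumors 1, 2 and 3 against 130, 82.3 and 12.8 CPM in CD34+ CAFs. Of its 6 genes 5 had a positive log2 ratio in 3 of 3 tumors and 0 passed the test without or with the block, with 0 at an unadjusted p under 0.05 without it and a lowest adjusted p of 0.0907 (Krt8) with it.

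The comparison of the fractions asked whether the adipogenic and lipid handling genes were used differently by CAFs without and with CD34. Cebpa, Zfp423 and Plin2 had higher values in the CD34- fraction of all 3 tumors, by log2 ratios of 0.19 to 1.02, and Lpl had lower values in all 3, at log2 ratios of -0.67 to -0.27. Cebpb, Cebpd, Cd36 and Fabp4 differed in sign between tumors, and Adipoq was near the limit of detection. By the test without a tumor term, 0 of the 8 tested genes passed an adjusted p of 0.05 (limma-voom), where 0.121% of all tested genes passed. When the tumor was added as a block, so that the fractions of 1 tumor were compared with each other, 1 of 8 passed, Cebpa, which rose, where 8.57% of all tested genes passed in either direction and 4.32% were higher in CD34- CAFs. At an unadjusted p under 0.05 without the block stood 2 of 8, Cebpa and Zfp423, against 14.3% of tested genes. The median log2 fold change (CD34- over CD34+) of the 8 genes was 0.044, against -0.028 for all tested genes.

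**Figure D1:**
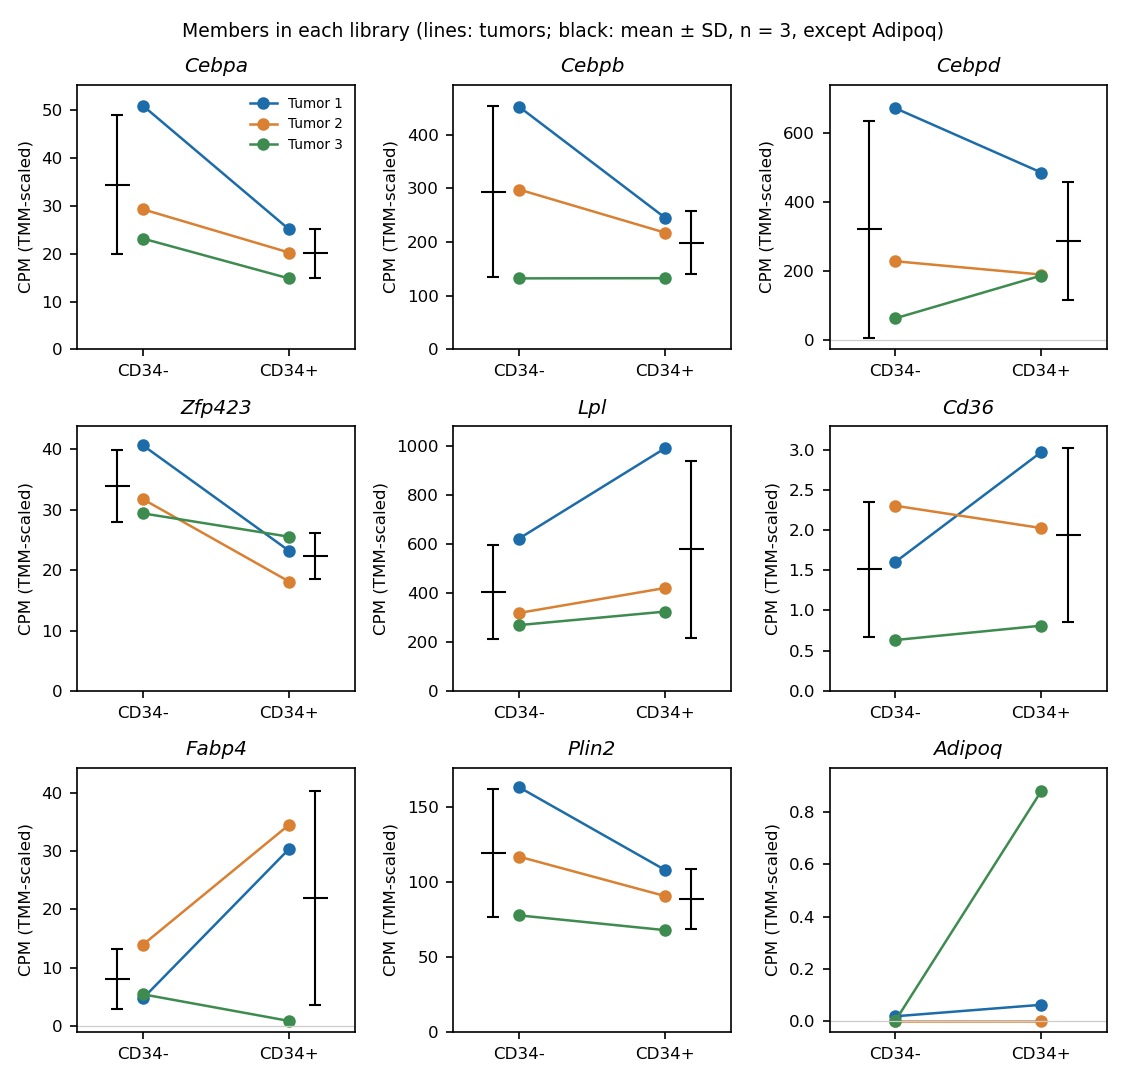
Level of each gene in CPM, scaled by library total and TMM factor, in the CD34- and CD34+ library of each tumor; lines join the 2 libraries of a tumor, and black bars show the mean ± SD of 3 libraries, not drawn for Adipoq. Cebpa falls from CD34- to CD34+ in every tumor, Lpl rises in every tumor, and Cebpd, Cd36 and Fabp4 rise in some tumors and fall in others.

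Levels were first compared between the genes as RPKM, that is CPM per kilobase of the gene length given in the table. Cebpb stood highest at 164 ± 79.6 RPKM over the 6 libraries, followed by Cebpd at 134 ± 101 and Lpl at 121 ± 68.0. These 3 did not separate beyond their spread: Cebpb exceeded Cebpd in 5 of 6 libraries and Cebpd exceeded Lpl in 3 of 6. Lpl exceeded the next gene, Plin2 (55.2 ± 18.1 RPKM), in 6 of 6 libraries. Plin2 exceeded Fabp4 (23.3 ± 22.2 RPKM) in 5 of 6, and Fabp4 exceeded Cebpa (10.3 ± 4.77 RPKM) in 3 of 6. Cebpa exceeded Zfp423 (5.73 ± 1.59 RPKM) and Zfp423 exceeded Cd36 (0.439 ± 0.228 RPKM) in 6 of 6 libraries. Adipoq came last at 0.130 ± 0.288 RPKM. Cebpb, Cebpd, Lpl and Plin2 thus lay above 97.3%, 96.7%, 96.4% and 92.2% of tested genes in mean RPKM, whereas Cd36 lay above 11.7%.

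**Figure D2:**
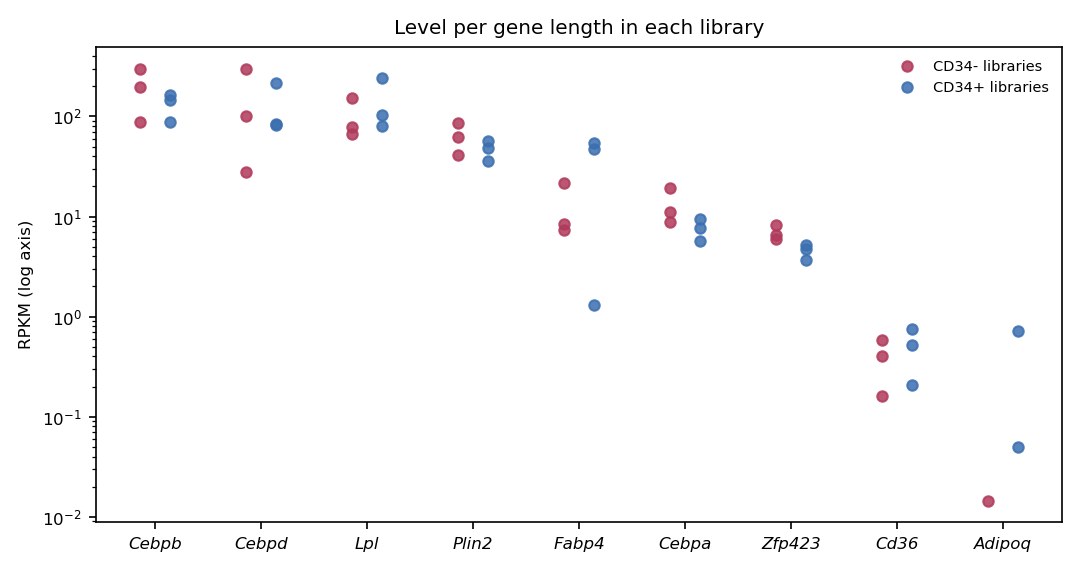
Level per gene length in RPKM, on a log axis, for each CD34- (red) and CD34+ (blue) library, with genes ordered by their mean; 3 libraries with no Adipoq count are not drawn. The genes span from 300.4 RPKM for the highest Cebpb library to 0.0144 RPKM for the lowest drawn Adipoq library, and Fabp4 has the widest spread among the tested genes.

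Of the C/EBP transcription factors, Cebpa (gene 12606, a protein-coding gene at chr7:35119293-35121928 of GRCm38) sustains the late steps of fat cell differentiation. It was at 51.0, 29.3 and 23.2 CPM in the CD34- libraries of tumors 1, 2 and 3 and at 25.1, 20.3 and 14.8 CPM in the CD34+ libraries. Each tumor had more Cebpa in its CD34- fraction, but the groups overlapped, since the CD34- library of tumor 3 lay below the CD34+ library of tumor 1. The means were 34.5 ± 14.6 and 20.1 ± 5.14 CPM (SD, n = 3). The fitted log2 fold change was 0.79 ± 0.34 (SE), with a 95% confidence interval of 0.02 to 1.56 and an adjusted p of 0.337. With the tumor block it was 0.70 ± 0.19 (interval 0.28 to 1.12), a 1.62-fold rise with an adjusted p of 0.0482. This call did not hold without tumor 1 or without tumor 2, where the blocked fit gave 0.58 and 0.84 at an adjusted p of 0.258 and 0.158. It was also lost with the tumor as a random effect (0.76, adjusted p of 0.124) and in edgeR with the block (0.73, adjusted p of 0.0813). The pericyte and epithelial sums were also higher in the CD34- fraction of each tumor, and their part in this result was not tested. Fewer cells that express a gene and less RNA of it per cell cannot be told apart in such bulk libraries.

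The promoter of Cebpa is shown because Cebpa alone of the 8 genes passed limma-voom with the tumor block, though not without it. It is given as the 250 bases before the RefSeq start (GRCm38.p6, chr7:35119043-35119292, plus strand, 66.4% G and C, 5′ to 3′). Capitals mark a TATAAA match whose first base is at position -30 from the start.
Cebpa: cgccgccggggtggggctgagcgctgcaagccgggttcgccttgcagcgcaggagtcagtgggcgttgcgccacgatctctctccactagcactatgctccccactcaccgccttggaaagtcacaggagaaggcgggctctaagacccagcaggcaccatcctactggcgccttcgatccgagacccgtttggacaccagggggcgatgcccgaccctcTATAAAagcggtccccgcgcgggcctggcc
In the same windows of all 32851 promoters in the RefSeq table, TATAAA was found on either strand in 12.4%. Of the 9 genes 6 had an entry, and of these only Cebpa held that match. The windows of Plin2, Cd36 and Adipoq held CCAAT, which was on either strand of 33.8% of all promoters. The Cebpb window held none of the letters searched. Cebpd, Lpl and Fabp4 had no entry.

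Cebpb (12608, chr2:167688915-167690432), an early factor of the same family that inflammatory and hormonal signals also induce, was at 452, 298 and 132 CPM in CD34- and at 245, 217 and 133 CPM in CD34+ CAFs of tumors 1, 2 and 3. The CD34- library was higher in tumors 1 and 2, and the 2 fractions of tumor 3 had nearly equal levels, with a log2 ratio of -0.0042. The means were 294 ± 160 and 198 ± 58.5 CPM, and the log2 fold change was 0.43 ± 0.43 (interval -0.55 to 1.42, adjusted p of 0.687). With the block it was 0.45 ± 0.17 (0.07 to 0.83) at an adjusted p of 0.144.

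Cebpd (12609, chr16:15887286-15889545), the other early factor, was at 671, 228 and 62.3 CPM in CD34- and at 484, 189 and 186 CPM in CD34+ CAFs. Tumors 1 and 2 had a slightly higher CD34- value, with log2 ratios of 0.47 and 0.27, and tumor 3 a lower one at -1.58. The low value was that of the CD34- library that stood apart from the rest. The log2 fold change was -0.36 ± 0.77 (interval -2.12 to 1.40, adjusted p of 0.866) with all libraries and 0.53 without that library, so its direction turned. Spidr overlaps Cebpd on the genome and had 7386 counts over the 6 libraries against 79487 for Cebpd. Whether the counting used strand was not stated, so reads of the overlap could belong to either gene.

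Zfp423 (94187, chr8:87661810-87962053), a zinc finger protein that commits fibroblasts to the preadipocyte state, was at 40.6, 31.7 and 29.4 CPM in CD34- CAFs and at 23.2, 18.1 and 25.5 CPM in CD34+ CAFs. All 3 CD34- libraries lay above all 3 CD34+ libraries, and Zfp423 was the only one of the 8 tested genes whose groups did not overlap, where 20.5% of all tested genes did not. The means were 33.9 ± 5.94 and 22.3 ± 3.79 CPM (SD, n = 3). The log2 fold change was 0.69 ± 0.23 (interval 0.17 to 1.21), and its adjusted p of 0.229 missed the threshold. With the block it was 0.62 ± 0.19 (0.20 to 1.05) at an adjusted p of 0.0802. The difference was smallest in tumor 3, with a log2 ratio of 0.20 against 0.81 in each of the other 2 tumors. The pericyte and epithelial sums were higher in the same fraction, and their part was not tested.

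Zfp423 had 2 starts with a promoter entry. The window of the upstream entry is shown because it held a match to TTGCNNAA, a core like that bound by C/EBP factors (GRCm38.p6, chr8:87959596-87959845, minus strand, 71.6% G and C, 5′ to 3′). The annotated gene reaches upstream to 87962053, beyond this window, and the bases before that position were not searched. Capitals mark this match, whose first base is at position -131 from the start.
Zfp423: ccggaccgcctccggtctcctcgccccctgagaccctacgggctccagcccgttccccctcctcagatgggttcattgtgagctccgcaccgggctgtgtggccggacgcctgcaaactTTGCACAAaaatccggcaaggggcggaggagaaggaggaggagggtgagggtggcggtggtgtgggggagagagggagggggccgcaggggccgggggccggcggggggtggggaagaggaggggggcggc
TTGCNNAA was in 9.56% of all promoters on either strand, and in no other window of the 6 genes. The match is a description of the letters and not of binding, which was not measured.

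Of the genes for lipid uptake, Lpl (16956, chr8:68880555-68906932) encodes lipoprotein lipase, which releases fatty acids from circulating triglycerides. It was at 622, 318 and 269 CPM in CD34- and at 991, 420 and 324 CPM in CD34+ CAFs of tumors 1, 2 and 3. The CD34+ library was higher in each tumor, with log2 ratios (CD34- over CD34+) of -0.67, -0.40 and -0.27, while the groups overlapped because tumor 1 was high in both fractions. The means were 403 ± 191 and 578 ± 361 CPM, and the log2 fold change was -0.51 ± 0.46 (interval -1.56 to 0.54, adjusted p of 0.652). With the block the interval narrowed to -0.74 to -0.15 around -0.45 ± 0.13, at an adjusted p of 0.0701. DESeq2 with the block called Lpl, at -0.46 with an adjusted p of 0.0231, besides Cebpa at 0.72 with 0.0187, where it called 11.7% of all tested genes. Without the CD34+ library of tumor 1, but with the CD34- library of that tumor kept, the unblocked value of Lpl was 0.031. With both libraries of tumor 1 left out it was -0.32, and -0.33 with the block.

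Cd36 (12491, chr5:17781690-17888959), a membrane receptor for fatty acids, was low throughout. It was at 1.60, 2.30 and 0.632 CPM in CD34- and at 2.97, 2.02 and 0.811 CPM in CD34+ CAFs, from 23 to 173 counts per library. The CD34+ fraction was higher in tumors 1 and 3 and the CD34- fraction in tumor 2. The log2 fold change of -0.31 ± 0.70 (interval -1.91 to 1.30, adjusted p of 0.874) was smaller than its error, and it turned to 0.15 without the CD34- library of tumor 3.

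**Figure D3:**
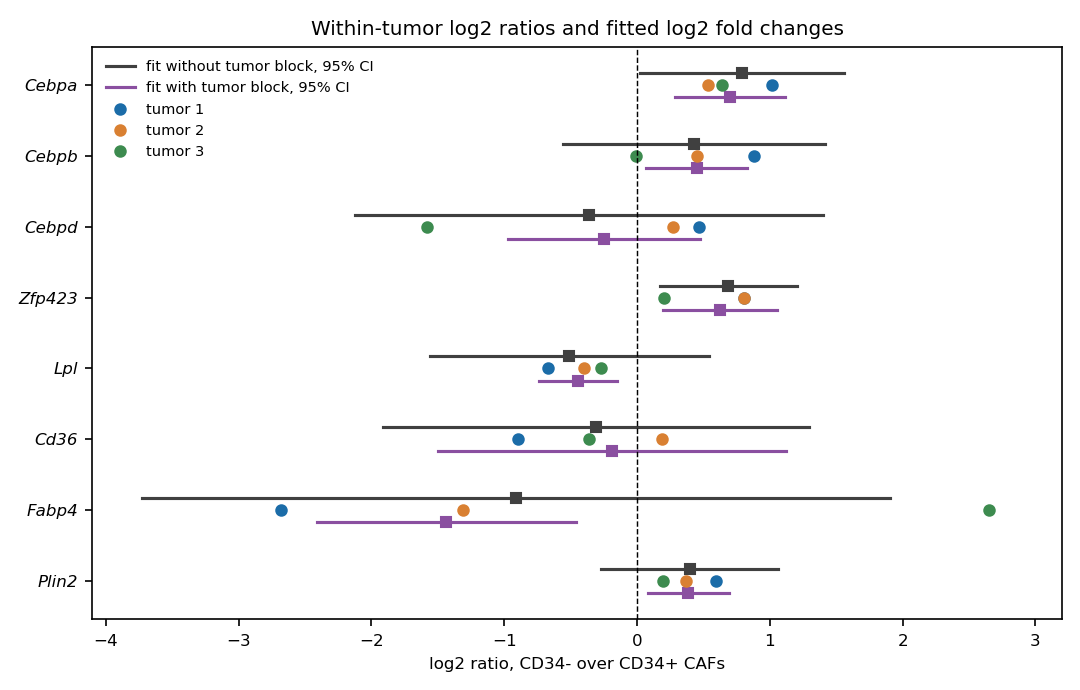
Log2 ratio of CD34- over CD34+ CAFs within each tumor (circles; for Zfp423 tumors 1 and 2 coincide) and fitted log2 fold changes (squares) with 95% confidence intervals, without and with the tumor block. Tumor 3 lies farther from the other 2 tumors than they do from each other for Cebpb, Cebpd, Zfp423 and Fabp4.

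Of the genes for lipid binding and storage, Fabp4 (11770, chr3:10204342-10208616), the fatty acid binding protein of adipocytes, macrophages and capillary endothelium, varied most. It was at 4.73, 13.9 and 5.42 CPM in CD34- and at 30.4, 34.5 and 0.846 CPM in CD34+ CAFs. The CD34+ libraries of tumors 1 and 2 were the highest of all and that of tumor 3, with 24 counts, the lowest, so that the highest and lowest CD34+ library differed 40.8-fold. Log2 ratios were -2.68 and -1.31 in tumors 1 and 2 and 2.65 in tumor 3. The fitted value was -0.91 ± 1.23 (interval -3.73 to 1.90, adjusted p of 0.772), and with the block it was -1.43 ± 0.43 at an adjusted p of 0.0771. With the same block edgeR and DESeq2 gave -0.76 and -0.69, at an adjusted p of 0.735 and 0.803. Without the CD34+ library of tumor 2, the unblocked value turned to 1.11. Endothelial markers summed to 28.3, 8.14 and 7.23 CPM in the CD34+ and to 21.6, 9.78 and 5.91 CPM in the CD34- libraries of tumors 1, 2 and 3, and macrophage markers to 4.27, 10.5 and 5.32 CPM in the CD34+ and to 7.22, 10.3 and 3.13 CPM in the CD34- libraries. The endothelial sum was highest in the CD34+ library of tumor 1 and the macrophage sum in that of tumor 2, the 2 libraries with most Fabp4, and the part of these cells in its level was not tested.

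Plin2 (11520, chr4:86626910-86670217), a protein that coats lipid droplets in most cell types, was at 163, 117 and 77.8 CPM in CD34- and at 108, 90.7 and 68.0 CPM in CD34+ CAFs. It was higher in the CD34- fraction of each tumor, with log2 ratios of 0.59, 0.37 and 0.19, as were the pericyte and epithelial sums, whose part was not tested, and the groups overlapped. The means were 119 ± 42.7 and 88.9 ± 20.1 CPM, and the log2 fold change was 0.40 ± 0.29 (interval -0.27 to 1.07, adjusted p of 0.578). With the block it was 0.39 ± 0.14 (0.08 to 0.69) at an adjusted p of 0.123.

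Adipoq (11450, chr16:23146536-23157968) encodes adiponectin, a hormone secreted by mature adipocytes, and was not tested because of its low counts. The CD34- libraries of tumors 1, 2 and 3 held 1, 0 and 0 counts and the CD34+ libraries 1, 0 and 25. Counts of 0 allow up to 0.0664 and 0.0825 CPM in the 2 CD34- libraries and up to 0.0351 CPM in the CD34+ library, as 3 counts per library. The 25 counts of the CD34+ library of tumor 3 made 0.882 CPM, with an exact Poisson 95% interval of 0.571 to 1.30 that covers counting error only. In that library the adipocyte marker Lipe had 77 counts (2.72 CPM), the droplet protein Plin4 had its highest level at 4.30 CPM, and Fabp4 had its lowest. The other 6 adipocyte markers had no count there. Lipe was higher in both libraries of tumor 1, at 3.13 (CD34-) and 3.09 CPM (CD34+), where Adipoq had 1 count each. Plin4 was at 3.72 CPM in the CD34- library of tumor 1. For Cfd, Cidec, Lep and Retn, which had none in any library, it is not known whether reads could be counted.

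Among the 8 tested genes 4 had the same sign of the log2 ratio in 3 of 3 tumors, with Cebpa, Zfp423 and Plin2 higher and Lpl lower in CD34- CAFs, against 46.3% of all tested genes. Tumor 1 was the highest and tumor 3 the lowest in both fractions for Cebpa, Cebpb, Cebpd, Lpl and Plin2. Within CD34- CAFs the highest tumor exceeded the lowest 3.42-fold for Cebpb, 10.8-fold for Cebpd and 2.32-fold for Lpl, and 1.38-fold for Zfp423. Within CD34+ CAFs these ranges were 1.85, 2.60, 3.06 and 1.41-fold.

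More of the 8 genes passed in the blocked fit without tumor 3 than in any other fit. In the blocked fit of tumors 1 and 2 alone, 6 of 8 genes passed, where 13.0% of all genes tested did. Cebpa (0.71), Cebpb (0.65), Zfp423 (0.80) and Plin2 (0.46) rose in CD34- CAFs, at adjusted p of 0.0226, 0.0133, 0.00987 and 0.0482. Lpl (-0.55) and Fabp4 (-1.81) fell, at 0.0233 and 0.00251, while Cebpd and Cd36 did not pass. The blocked fits without tumor 1 and without tumor 2 called 0 of the 8, where they called 1134 of 14893 and 851 of 14634 genes tested. The unblocked fit without tumor 3 also called 0 of the 8, but it called 0 of all 15514 genes tested. When only the CD34- library of tumor 3 was left out, without a block, 0 of 8 passed, where 0 of all 15559 genes tested did. The log2 fold changes in that fit were 1.01 for Cebpa, 0.94 for Cebpb, 0.76 for Zfp423, 0.67 for Plin2, -0.27 for Lpl and -0.68 for Fabp4.

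The other genes of adipogenesis and lipid handling were examined as 7 lists of 72 genes, of which 63 were tested. Without the block 1 of the 63 passed (1.59%, against 0.121% of all tested genes), and with it 12 passed (19.0%, against 8.57%), 5 higher (7.94%, against 4.32%) and 7 lower in CD34- CAFs. The counts of the single lists are small and are to be read against the same shares. The median log2 fold change of the 63 was -0.054, and 0.014 with the block. Unless stated, values in the following are those with the block.

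Of 12 adipogenic transcription factors, all tested, 1 rose and 1 fell. Ebf2, a factor of brown and beige preadipocytes, was at 21.7 ± 6.46 CPM in CD34- and 70.5 ± 13.2 CPM in CD34+ CAFs and fell by 1.67 on the log2 scale (adjusted p of 0.00412; 0.0632 without the block). Srebf1, which drives genes of fatty acid synthesis, was at 85.4 ± 18.9 and 49.7 ± 4.32 CPM and rose by 0.76 (adjusted p of 0.0126). Of the most abundant others, Klf4, the glucocorticoid receptor Nr3c1 and Ebf1 had log2 fold changes of 0.014, -0.38 and -0.60 at adjusted p of 0.967, 0.123 and 0.0669. The median of the list was -0.18.

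Of 11 inhibitors of adipogenesis and genes of adipogenesis-regulating fibroblasts, 10 were tested, 2 rose and 3 fell. Dlk1 (Pref-1), a membrane protein that keeps preadipocytes undifferentiated, was at 6.41, 0.686 and 0.165 CPM in CD34- and at 66.3, 10.6 and 1.34 CPM in CD34+ CAFs of tumors 1, 2 and 3. It fell by 3.43 on the log2 scale (adjusted p of 0.000804), and without the block it did not pass, at an adjusted p of 0.565. Gdf10, a secreted protein of the TGF-beta family and a marker of the regulatory fibroblasts, fell by 1.57 (adjusted p of 0.00154), and Zfp521, a repressor of Zfp423, fell by 0.53 (adjusted p of 0.0442). Clec11a and Fmo2, other markers of the same regulatory fibroblasts, rose by 1.01 and 1.07 (adjusted p of 0.0182 and 0.0462). Klf2, Ccn5 and F3 had log2 fold changes of 0.40, 0.62 and 0.24 at adjusted p of 0.108, 0.0724 and 0.532, and the median of the list was 0.32.

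Of 12 genes for fatty acid uptake and activation, all tested, 2 fell and 0 rose. Cav1, Cavin1 and Cav2 of this list encode parts of caveolae, the membrane pits of adipocytes, endothelium and fibroblasts. Cav1 was at 13.4, 22.9 and 27.0 CPM in CD34- and at 86.4, 157 and 99.7 CPM in CD34+ CAFs, with no overlap. It fell by 2.49 without the block (adjusted p of 0.0434, the only call among the lists) and fell by 2.46 with it (adjusted p of 0.000324). Without the block the lists gave 0 calls when any CD34- library, the CD34+ library of tumor 2 or 3, or the whole of tumor 2 or 3 was left out. Those fits called only 0 to 7 genes over the whole table. Cavin1 was at 187 ± 31.3 and 421 ± 76.0 CPM and fell by 1.17 (adjusted p of 0.00393), while Cav2 had a log2 fold change of 0.081 (adjusted p of 0.939). The acyl-CoA synthetases Acsl5, Acsl4 and Acsl3, which activate fatty acids, had log2 fold changes of -0.15, -0.27 and -0.29 at adjusted p of 0.578, 0.282 and 0.369. The median of the list was -0.21.

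Of 11 lipoprotein receptors and lipase regulators, 10 were tested, 1 rose and 1 fell. Lrp1, a large endocytic receptor of lipoprotein remnants, was at 3963 ± 446 and 2390 ± 409 CPM and rose by 0.74 (adjusted p of 0.0107). Vldlr, which binds triglyceride-rich lipoproteins, was at 16.9 ± 5.03 and 41.8 ± 15.0 CPM and fell by 1.33 (adjusted p of 0.00455). Angptl4, an inhibitor of lipoprotein lipase, Lipa, the lysosomal lipase, and Apoe had log2 fold changes of -0.29, 0.12 and -0.40 at adjusted p of 0.473, 0.688 and 0.0967. The median of the list was -0.058.

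The genes of triglyceride storage and release gave 1 call in 3 lists. Of 10 lipid droplet proteins other than Plin2, 5 were tested and 0 passed. Plin3, Bscl2 and Hilpda had log2 fold changes of -0.014, 0.40 and -0.72 (adjusted p of 0.969, 0.195 and 0.161), and the adipocyte droplet proteins Plin1 and Cidec had 1 count and no count in all. Of 10 genes of triglyceride synthesis, all tested, 0 passed, and Gpat4, Agpat3 and Lpin2 were at -0.21, -0.074 and 0.19 (adjusted p of 0.425, 0.848 and 0.592). Of 6 genes of lipolysis 4 were tested, and Pnpla2, the first lipase of stored triglyceride, was at 17.3 ± 4.21 and 8.57 ± 2.01 CPM and rose by 1.00 (adjusted p of 0.0314). Mgll, Abhd5 and Lipe were at 0.71, -0.33 and -0.67 (adjusted p of 0.195, 0.195 and 0.709). The medians of the 3 lists were -0.014, 0.16 and 0.19.

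**Figure D4:**
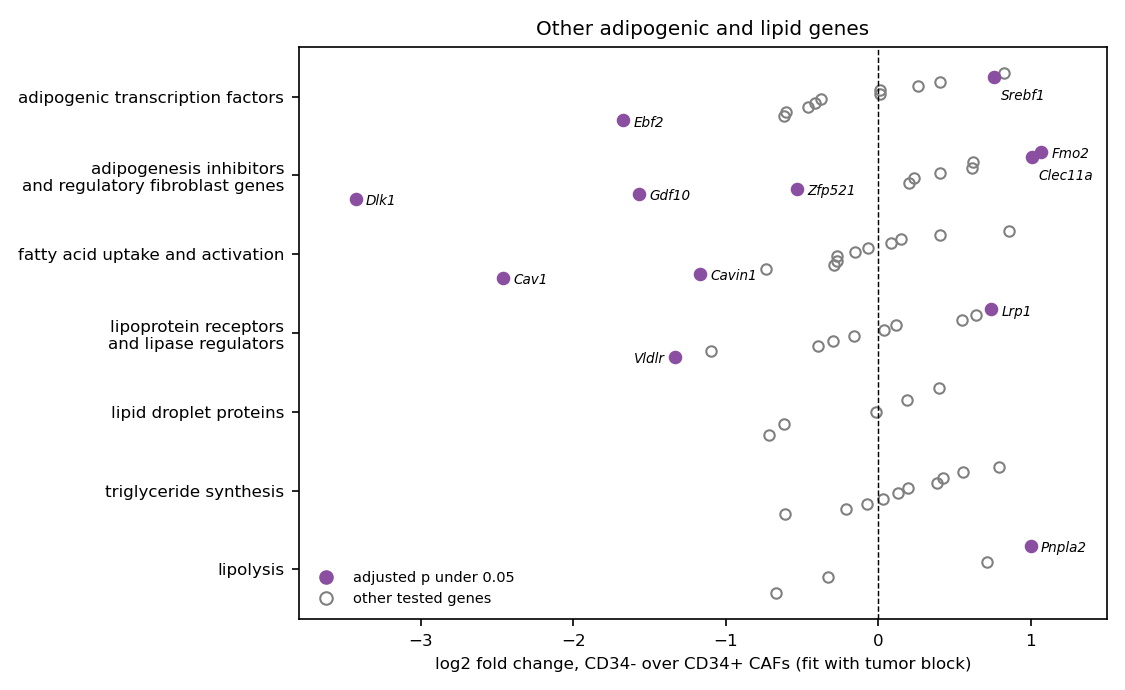
Log2 fold change of CD34- over CD34+ CAFs, with the tumor block, for the 63 tested genes of 7 lists, 1 row per list; filled points passed an adjusted p of 0.05 and carry their names. The 12 filled points lie on both sides of 0, with 5 higher in CD34- CAFs and 7 lower, and none among the lipid droplet and triglyceride synthesis genes.

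For 3 of the genes the most alike patterns over the 6 libraries were sought among 8943 genes whose log2 CPM averaged 3 or more, by Pearson's r. The points share their 6 libraries and their tumors, and with so many candidates high values are usual, so r is given as a description. Lpl was most alike to Foxj2 (0.988), Taf4b (0.981) and Azin1 (0.980). Cebpa was most alike to Adgrl1 (0.993), Hipk1 (0.989) and Itm2c (0.987), and Zfp423 to Radil (0.996), Smpd2 (0.989) and Stoml1 (0.987). Of these 9 genes, Itm2c passed the blocked test, at a log2 fold change of 0.55 without the block and an adjusted p of 0.0214 with it.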

How the data were processed

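RNA of sorted GFP+ CAFs was sequenced on an Illumina instrument, and the authors aligned reads to mouse GRCm38 (mm10). Rsubread was used by the authors to obtain raw counts for each NCBI gene, which were deposited for 6 libraries without normalisation. Strand use and the handling of reads with several matches were not stated. Genes with low counts were removed (filterByExpr, minimum count 10), TMM factors were computed, and groups were compared with voom and limma, Benjamini-Hochberg adjustment over 14855 genes and a two-sided threshold of 0.05, without a tumor term, since the study's methods name voom and limma and state none (R 4.3.3, edgeR 4.0.16, limma 3.58.1). Libraries of 1 tumor are paired, since both fractions came from it; deviations from group means correlated at 0.373, 0.350 and 0.219 in tumors 1, 2 and 3, and the fit with the tumor as a block is given beside the other.

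Libraries came from 3 separate tumors, and those of 1 group differed beyond sampling noise (chi-square per gene of 111 to 198). CPM were scaled by library total and TMM factor. Positions, overlaps and promoters are from RefSeq (GRCm38.p6). Members and lists were chosen with earlier results of these data known. Named are the 9 genes, Cd34 and Pdgfra, list genes that passed either fit plus up to 3 abundant others per list, the leading and the undetected genes of the cell type lists, and the 3 genes most alike to Lpl, Cebpa and Zfp423; other marker genes, Plin1, Plin4 and Cav2 were named after their values were seen. Alternatives were edgeR quasi-likelihood, DESeq2 1.42.0, other scalings, no low-count filter, genes with a symbol, sample quality weights and leaving out each library or tumor. The scripts were tested on simulated data.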

Additional observations from a re-analysis of the deposited data

How the results depend on the processing

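The number of genes called over the whole table was 18. It became 1273 with the tumor block, 703 with a random effect of tumor, 9 with edgeR, 575 with edgeR and the block, 698 with DESeq2, 1733 with DESeq2 and the block, 32 with library totals alone and 161 with sample quality weights. Leaving out a library or tumor gave 0 to 2019, from 0 to 86 without the block and 851, 1134 and 2019 with it (tumors 2, 1 and 3 left out). Of the 8 members 0 were called, 1 with the block, 0 with the random effect, 0 with edgeR and the block, 2 with DESeq2 and the block, and 0 to 6 with a library or tumor left out, the 6 without tumor 3 with the block. In limma-voom with all libraries the block changed the call of Cebpa and of no other member. Of the 63 other listed genes 1 was called, 12 with the block, 8 with the random effect, 0 with edgeR, 7 with edgeR and the block, 7 with DESeq2, 15 with DESeq2 and the block, 2 with quality weights and 0 to 18 with a library or tumor left out (with the block 10 without tumor 1, 10 without tumor 2 and 18 without tumor 3). The cause of these differences was not tested.

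Over 23 alternatives each, Cebpa, Cebpb, Zfp423 and Plin2 kept their direction. Cebpd turned to 0.16 with edgeR, 0.15 with DESeq2 and 0.097 with quality weights, and ranged from -1.15 to 0.53 with a library or tumor left out, turning without CD34- library 3, CD34+ library 1 or tumor 3 (0.25, and 0.35 with the block). Cd36 turned to 0.15 with quality weights and ranged from -0.67 to 0.15 with a library or tumor left out, turning without CD34- library 3, CD34+ library 2 or, with the block, tumor 1 (0.13). Lpl ranged from -0.86 to 0.031, turning without CD34+ library 1, and Fabp4 from -2.24 to 1.11, turning without CD34+ library 2 and, at 0.64, without tumor 2. Adipoq entered a test only with no filter on low counts. With 3 tumors, the unblocked intervals of single genes spanned up to several log2 units, and low counts limit Cd36 and Adipoq.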
